A study of Bos taurus with 15 samples.

Results

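FOXP3 T cells in cattle tissues were defined here as barcodes, each standing for 1 droplet and normally 1 cell, that carried at least 1 unique molecular identifier (UMI, 1 captured mRNA molecule) of FOXP3 and at least 1 of CD3E. Barcodes with 500 to 4000 detected genes and under 50000 UMIs entered. FOXP3 (ENSBTAG00000013279) encodes the transcription factor that defines regulatory T cells, and CD3E (ENSBTAG00000015710) encodes a chain of the T cell receptor complex that all T cells carry. Of 172405 barcodes in 15 libraries, 132361 lay within the limits, 38894 of these held CD3E, and 104 held FOXP3 as well. The comparison class in each library was its CD3E barcodes without FOXP3. Values are given for the 5 libraries with 10 or more FOXP3 T cells, which held 85 of the 104 cells and 15620 comparison barcodes. Both classes were chosen on FOXP3 and CD3E, so the values of these genes describe the choice and were not tested.

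The libraries were made with droplet-based single-cell RNA sequencing from Holstein cattle, with 1 library per tissue and stage. Adult (AD) duodenum, jejunum, cecum and colon came from 1 lactating cow. The 11 newborn (NB) libraries, of which cecum, rectum and salivary gland reached 10 FOXP3 T cells, came from 3 calves of similar weight, and which calf gave which library is not stated. The ages were not given in the sources used here. AD duodenum and cecum were dissociated with a lamina propria kit, AD jejunum and colon with a different tissue kit, NB gut with EDTA and trypsin before the lamina propria kit, and NB salivary gland with collagenase, dispase and DNase I. Stage, animal and dissociation therefore cannot be told apart. p-values refer to the spread over 5 libraries, 2 of them from the same cow, and not over animals. In the count model used below, the spread of each gene was estimated jointly with that of all genes tested. Its p-values can therefore be far smaller than 5 libraries of 1 gene alone would give.

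Regulatory T cells are a branch of the CD4+ lineage that holds back the responses of other T cells. They take up interleukin 2 through a receptor whose alpha chain is IL2RA, carry the inhibitory receptor CTLA4 and several receptors of the tumour necrosis factor family, and make little of the cytotoxic and inflammatory proteins of other T cells. In the gut wall they are known for keeping the tolerance to food and resident microbes. Where FOXP3 T cells are described as higher or lower than other CD3E barcodes, the statement refers to RNA, and levels are normalised counts (CPM), that is, the UMIs of a gene per 1000000 UMIs of 1 class in 1 library.

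FOXP3 was a rare transcript and lay mostly in CD3E barcodes. It was seen in 106 barcodes within the limits, of which 98.1% (95% exact binomial interval 93.4 to 99.8%) also held CD3E. Among 93467 barcodes without CD3E, 2 held FOXP3, a share of 0.00214% (0.000259 to 0.00773%), against 0.267% (0.219 to 0.324%) of CD3E barcodes. Both lay in NB rectum, where 12 of the 14 FOXP3 barcodes held CD3E. Among barcodes without a UMI of CD3E, CD3D or CD3G, no FOXP3 UMI was found in 28129 with the epithelial gene EPCAM, which allows a share of up to 0.0107%. Of 13812 such barcodes with the fibroblast collagen gene COL1A2, 1 held a FOXP3 UMI, also in NB rectum. Most of these EPCAM barcodes lay in NB libraries without FOXP3 T cells, and within single described libraries the limit from EPCAM barcodes was 0.216% in NB rectum, 0.418% in NB cecum, 0.877% in AD jejunum, 5.17% in AD duodenum and 8.82% in NB salivary gland. These intervals and limits cover counting error only. Cell barcodes shared between any pair of libraries numbered 4 to 84, with a median of 37 over 105 pairs.

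FOXP3 T cells were found in 9 of the 15 libraries. They numbered 37 in AD duodenum, 15 in AD jejunum, 12 in NB rectum, 11 in NB cecum and 10 in NB salivary gland. The remaining 19 cells fell in AD colon (7), AD cecum (5), NB colon (5) and NB liver (2), and no such cell was found in NB reticulum, omasum, abomasum, duodenum, jejunum or ileum. Those 6 libraries held 1 to 373 CD3E barcodes, so that a count of 0 allowed a share of up to 0.804% even in the largest of them, NB abomasum (3 counts of its CD3E barcodes, the floor used for every count of 0; the exact binomial upper limit was 0.984%). The library just inside the limit for description was therefore NB salivary gland with 10 cells, and the one just outside was AD colon with 7. Of the 104 cells, 98 carried a single FOXP3 UMI and 6 carried 2, so nearly all members sat just inside the threshold of 1 UMI.

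Among CD3E barcodes, FOXP3 T cells made up 0.500% in AD duodenum (interval 0.352 to 0.689%), 0.349% in AD jejunum (0.196 to 0.576%), 1.35% in NB cecum (0.678 to 2.41%), 0.891% in NB rectum (0.461 to 1.55%) and 0.539% in NB salivary gland (0.259 to 0.989%). The order from low to high was AD jejunum, AD duodenum, NB salivary gland, NB rectum and NB cecum, and every interval overlapped that of its neighbour in this order. The mean over these libraries was 0.425% ± 0.106 (SD, n = 2) in AD and 0.928% ± 0.409 (SD, n = 3) in NB. Only libraries with 10 or more FOXP3 T cells entered, so the means were chosen on the counts they rest on. Among the libraries left out, the share was 0.0607% of 8236 CD3E barcodes in AD cecum and 0.0864% of 8098 in AD colon. It was 0.591% of 846 in NB colon and 0.0394% of 5082 in NB liver. The shares of the described libraries depended on depth. FOXP3 T cells were deeper than comparison barcodes in 4 of 5 libraries, with median UMIs of 3264 against 3642 in AD duodenum, 6826 against 4141 in AD jejunum, 11385 against 7187 in NB cecum, 9669.5 against 6186 in NB rectum and 8621 against 6045 in NB salivary gland. When each barcode was thinned to 2000 UMIs, the shares were 0.233%, 0.172%, 0.519%, 0.385% and 0.0659% in the same order of libraries, and at 1000 UMIs the means were 0.135% in AD and 0.138% in NB. At equal depth the shares of the libraries rested on 1 to 15 cells, and no order was read from them.

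**Figure D1:**
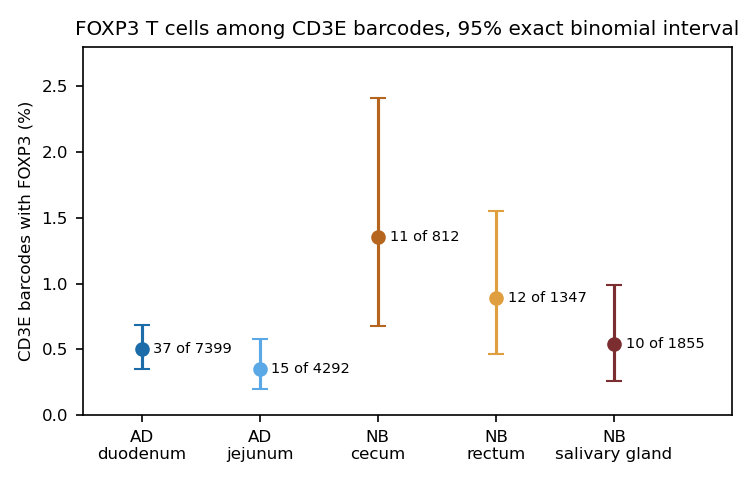
Percentage of CD3E barcodes with at least 1 FOXP3 UMI (vertical axis) in the 5 libraries with 10 or more FOXP3 T cells; points are shares, bars are 95% exact binomial intervals, and the counts stand beside the points. The shares run from 0.349% in AD jejunum to 1.35% in NB cecum, with overlapping intervals between neighbours in rank.

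The label of these cells was set against T cell markers that did not choose them and against the markers of 13 other cell types. CD3D was measured at 173 to 628 CPM in FOXP3 T cells and 183 to 571 CPM in comparison barcodes, and CD3D, CD3G and CD2 did not pass the test between the classes. Markers of thymocytes, the immature T cells of the thymus, were all at 0 in FOXP3 T cells, and those of NK cells, neutrophils and erythroid cells gave 1 UMI each in all 85 cells. At the level of the comparison barcodes 0.0232 to 1.10 UMIs of each thymocyte marker would have been present, so a difference was not detectable. The same held for the NK markers NCR1 (0.357) and NCAM1 (0.700). For the neutrophil markers S100A8 and S100A9 the level was 5.01 and 8.65 UMIs. Markers of other cell types reached 10 or more UMIs in a few members, and lower counts were common. JCHAIN was seen in 48 and KIT in 21 of the 85 cells. Barcodes with under 2 UMIs of every such marker numbered 11 of 37 in AD duodenum and 1 of 15 in AD jejunum. They numbered 8 of 11 in NB cecum, 8 of 12 in NB rectum and 6 of 10 in NB salivary gland. Of 7362, 4277, 801, 1335 and 1845 comparison barcodes in the same order, 2521, 1384, 384, 783 and 1215 were of this kind. One of the 12 NB rectum cells held 450 UMIs of COL3A1, 208 of COL1A2 and 117 of DCN (fibroblast genes), with 1 UMI each of FOXP3 and CD3E. CTLA4, IL2RA, IKZF2, TNFRSF4 and TNFRSF18 were all at 0 in that cell. Macrophage complement genes reached 15 UMIs of C1QA in 1 AD duodenum cell, 65 and 34 in 2 AD jejunum cells, and 12 UMIs of C1QA or 10 of C1QB in 2 NB salivary gland cells. Barcodes with 10 or more UMIs of any such marker made up 2.70%, 13.3%, 0%, 8.33% and 20.0% of FOXP3 T cells in AD duodenum, AD jejunum, NB cecum, NB rectum and NB salivary gland, against 6.40%, 17.1%, 11.1%, 10.0% and 3.04% of comparison barcodes.

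The summed profiles of FOXP3 T cells and comparison barcodes were compared within libraries with edgeR, a count model, on 8953 genes. FOXP3 T cells carried more RNA of 123 genes (1.37% of those tested) and less of 304 genes (3.40%) at a Benjamini-Hochberg adjusted p under 0.05, of which 91 and 211 had the same sign in all 5 libraries. At an unadjusted p under 0.05 stood 1344 genes. The split depended on the scaling: with another set of size factors (RLE) it was 165 higher and 210 lower, the median log2 fold change of all genes moved from -0.18 to -0.05. DESeq2, which also differs in its model and in the genes given a p, called 93 higher and 62 lower. When each FOXP3 T cell was set against the 10 comparison cells of most similar depth in its library, 53 genes (1.06%) were higher and 55 (1.10%) lower of 5004 tested. Beside the losses given with the genes that follow, depth matching also ended the calls of IL2RB, STAT5A, CD8B, CD247, GZMA, IFNG, TNF, FASLG, CXCR4, SATB1, ID2, DUSP1, TRAF1, C1QA and KIT. Without the term that pairs the classes within a library, 1 gene, SNX9, was higher and none was lower, with 617 genes at an unadjusted p under 0.05.

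The genes that regulatory T cells are known for were higher in FOXP3 T cells. Of 18 measured members of the regulatory core list that entered the test, 10 were higher, 1 was lower and 7 did not pass, with a median log2 fold change of 1.21 against -0.18 over all genes tested. The 10 were the receptors TNFRSF4, TNFRSF18, TNFRSF9, TNFRSF1B, CTLA4, ICOS and IL2RA, and the transcription factors IKZF2, BATF and PRDM1. The 5 of largest fold, TNFRSF4, CTLA4, TNFRSF18, IL2RA and IKZF2, were higher in each library with counting intervals that did not overlap between the classes. These intervals leave out the spread between cells, so 1 cell can separate the classes. In AD duodenum 1 cell held 29 UMIs of TNFRSF4 and 24 of TNFRSF18. No other cell there held more than 6 and 3 of these genes. With depth-matched comparison cells TNFRSF9, ICOS and PRDM1 lost their calls. Without barcodes holding 2 or more UMIs of an other-type marker, which left 1 to 11 FOXP3 T cells per library, IL2RA (0.92, adjusted p = 0.155), TNFRSF18 (0.99, adjusted p = 0.0931), TNFRSF9, TNFRSF1B, ICOS and BATF lost theirs, and TNFRSF4, CTLA4, IKZF2 and PRDM1 kept them. Values by library are given in the order AD duodenum, AD jejunum, NB cecum, NB rectum and NB salivary gland from here on.

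TNFRSF4 (ENSBTAG00000015635), the costimulatory receptor OX40, was at 256, 1050, 542, 1801 and 1077 CPM in FOXP3 T cells and at 44.4, 86.3, 118, 386 and 27.2 CPM in comparison barcodes. The NB rectum was highest in both classes, and no FOXP3 value fell below the comparison value of its own library. The fitted log2 fold change was 2.93 ± 0.23 (SE, edgeR adjusted p = 4.17e-18). It was seen in 39 of the 85 cells, and 1 cell held 15.3% of its UMIs over all 5 libraries. Within a library single cells weighed more. In NB cecum 1 cell held 42 of the 64 UMIs there. The highest cell and the next held 29 and 6 UMIs in AD duodenum and 65 and 24 in NB salivary gland. They held 37 and 15 in AD jejunum and 80 and 30 in NB rectum. TNFRSF18 (ENSBTAG00000015632), the related receptor GITR, was at 231, 773, 415, 1117 and 527 CPM against 43.5, 67.5, 284, 661 and 41.2 CPM. The comparison barcodes of NB cecum and NB rectum thus stood above those of the other 3 libraries, and the fold was smaller there. The fitted change was 1.94 ± 0.24 (edgeR adjusted p = 1.69e-09).

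CTLA4 (ENSBTAG00000013170), which takes the costimulatory ligands away from antigen-presenting cells, was at 160, 442, 237, 450 and 796 CPM in FOXP3 T cells and at 39.1, 48.8, 84.3, 318 and 62.6 CPM in comparison barcodes. Its log2 fold change was 1.99 ± 0.24 (edgeR adjusted p = 5.72e-10), and it was seen in 47 of 85 cells. Among barcodes with CD4 and without CD8 the change was 0.83 (adjusted p = 0.284). IL2RA (ENSBTAG00000020892) was the most even of these 5 across FOXP3 T cells, at 276, 405, 271, 277 and 303 CPM against 88.3, 31.4, 98.7, 138 and 40.3 CPM. FOXP3 T cells of the 5 libraries lay within a narrow range while the comparison barcodes did not, and the fitted change was 1.91 ± 0.23 (edgeR adjusted p = 8.16e-10). IKZF2 (ENSBTAG00000037804), encoding the factor Helios, was at 301, 792, 169, 277 and 292 CPM against 59.2, 100, 89.1, 68.5 and 89.2 CPM. The AD jejunum was highest and NB cecum lowest in FOXP3 T cells, with a fitted change of 1.85 ± 0.21 (edgeR adjusted p = 1.04e-10).

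**Figure D2:**
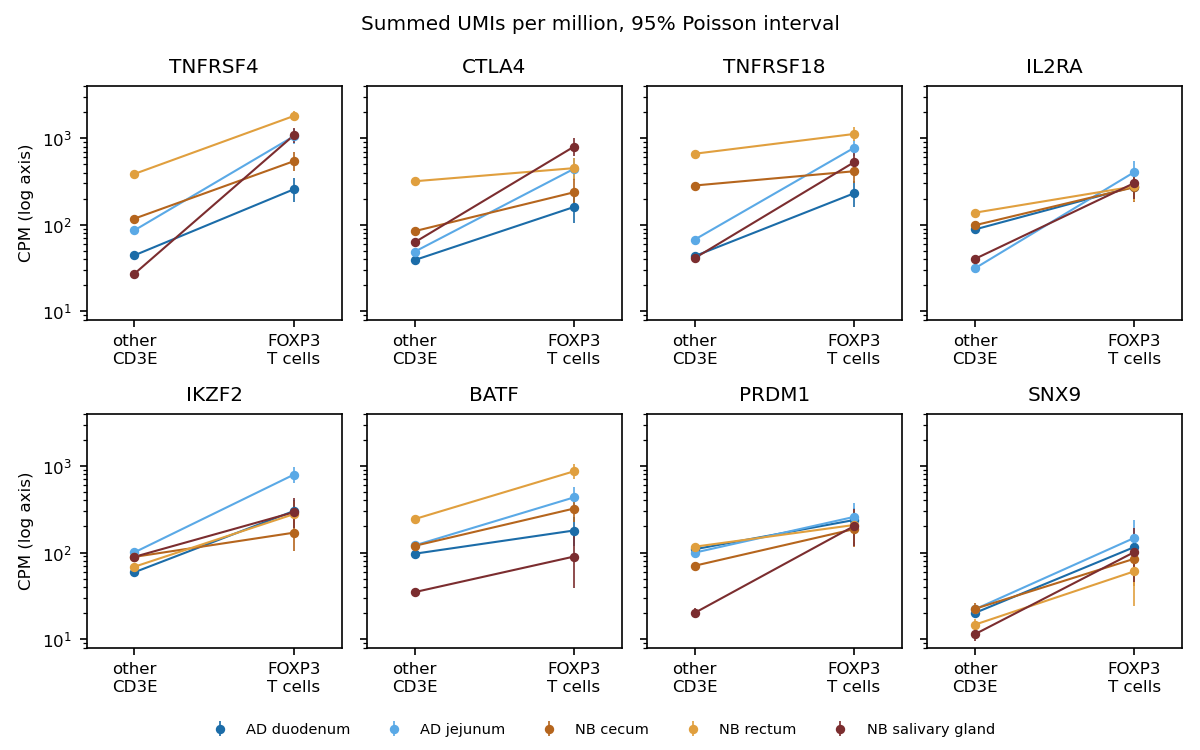
CPM on a log axis for 8 genes in other CD3E barcodes (left of each panel) and FOXP3 T cells (right), with lines joining the classes of a library and bars giving 95% Poisson intervals of counting error. All lines rise, and TNFRSF4 reaches 1801 CPM in NB rectum FOXP3 T cells.

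BATF, a factor of effector regulatory cells, was at 180, 433, 322, 866 and 89.7 CPM against 96.8, 121, 119, 243 and 34.9 CPM, a log2 fold change of 1.30 ± 0.20 (edgeR adjusted p = 1.25e-06). PRDM1, which encodes Blimp-1, was at 237, 258, 186, 208 and 202 CPM against 109, 99.7, 70.4, 117 and 20.1 CPM, so that FOXP3 T cells differed little among libraries. TNFRSF1B, the second receptor of tumour necrosis factor, was higher by 1.31 ± 0.22, and its excess was smallest in NB cecum, with 152 against 136 CPM. ICOS, a costimulatory receptor, was at 288, 221, 42.3, 60.6 and 269 CPM against 136, 82.3, 50.6, 55.2 and 42.8 CPM. It was lower than the comparison in NB cecum, and its call was lost without AD jejunum or without NB salivary gland. TNFRSF9, an activation-induced receptor, was at 25.6, 405, 67.7, 191 and 135 CPM against 14.4, 32.6, 181, 135 and 20.5 CPM, below the comparison in NB cecum, and its call was lost without the same libraries.

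Other genes named in regulatory T cells elsewhere did not pass or gave few UMIs. CCR4 was at 57.7, 36.8, 0, 43.3 and 67.3 CPM against 19.4, 6.60, 15.2, 26.8 and 7.74 CPM and did not pass (adjusted p = 0.109). GATA3 was above the comparison in all 5 libraries, with 122 to 191 CPM against 57.7 to 105 CPM, and did not pass (adjusted p = 0.100). IKZF4, LRRC32, CCR8 and LAYN gave no UMI in the 85 cells, and at the level of the comparison barcodes 0.0386 to 1.33 UMIs would have been present, so a difference was not detectable at this depth. TIGIT gave 4 UMIs, ENTPD1 2 and NT5E 1.

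In single cells, CTLA4 and IL2RA were both seen in 24.3%, 46.7%, 81.8%, 58.3% and 70.0% of FOXP3 T cells and in 2.61%, 2.50%, 12.9%, 25.8% and 4.55% of comparison barcodes. Conversely, FOXP3 was seen in 4.48%, 6.14%, 8.04%, 1.99% and 7.69% of the CD3E barcodes with both genes, so most barcodes with this pair lacked a FOXP3 UMI at this depth. After thinning to 2000 UMIs, which left out 7 FOXP3 T cells, all from AD duodenum, the mean number of the 23 other core genes seen in a cell was 2.83 ± 1.97, 5.13 ± 2.13, 3.82 ± 2.60, 4.92 ± 2.54 and 3.90 ± 3.11 (SD over cells) in FOXP3 T cells. In comparison barcodes it was 1.48 ± 1.40, 1.41 ± 1.43, 1.93 ± 1.69, 2.43 ± 1.98 and 0.868 ± 1.12. AD duodenum FOXP3 T cells had the lowest mean of the 5. None of the genes was seen in 3 of its 30 cells and 0 of 15 in AD jejunum. The same held for 1 of 11 in NB cecum, 1 of 12 in NB rectum and 1 of 10 in NB salivary gland. In each library the mean was higher in FOXP3 T cells, and the ranges over cells overlapped.

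At this equal depth of 2000 UMIs, IL2RA was seen in 42.6% ± 9.59 of FOXP3 T cells and 11.4% ± 5.41 of comparison barcodes (SD over 5 libraries), and CTLA4 in 42.6% ± 15.9 against 9.60% ± 8.37. TNFRSF4 was seen in 44.3% ± 24.7 against 9.89% ± 8.43, IKZF2 in 43.8% ± 17.4 against 13.1% ± 2.29, and TNFRSF18 in 48.3% ± 22.5 against 17.1% ± 15.9. Each of these shares was higher in 5 of 5 libraries. The exact permutation test over sign flips of 5 libraries, two-sided, gave p = 0.0625 for each, the smallest it can give, and 0.191 after adjustment over 214 genes, so this design cannot reach 0.05. Without thinning, IL2RA was seen in 54.1% of AD duodenum FOXP3 T cells and 24.7% of its comparison barcodes.

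**Figure D3:**
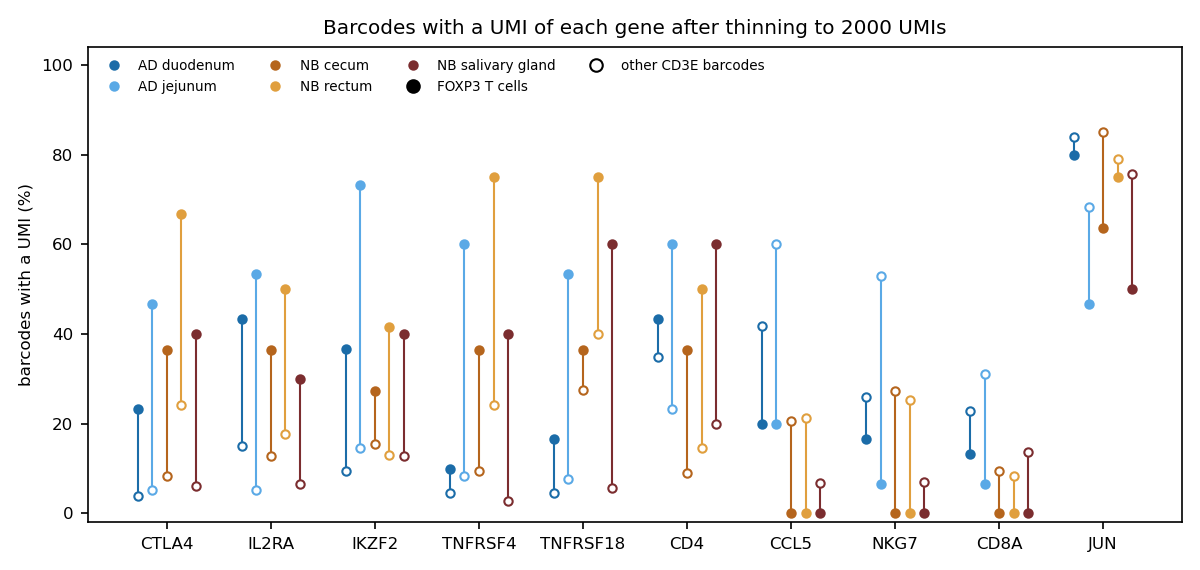
Percentage of barcodes with at least 1 UMI of each of 10 genes after thinning to 2000 UMIs, in FOXP3 T cells (filled) and other CD3E barcodes (open) of 5 libraries, joined by lines. For CTLA4, IL2RA, IKZF2, TNFRSF4, TNFRSF18 and CD4 the filled points are above the open ones in all 5 libraries, and for CCL5, NKG7, CD8A and JUN below.

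Few genes of interleukin 2 signalling and suppressive cytokines passed the test. Of 12 tested, 2 were higher, 1 was lower and 9 did not pass, with a median log2 fold change of 0.30. IL2RB, the beta chain of the receptor, was at 244, 221, 195, 312 and 78.5 CPM against 95.9, 114, 106, 119 and 74.0 CPM (0.81 ± 0.21, edgeR adjusted p = 0.00899), and its call was lost without AD duodenum, without AD jejunum or without NB rectum. STAT5A, which carries the interleukin 2 signal, stood near the threshold (0.78 ± 0.25, adjusted p = 0.0483), and its call was lost without any 1 of the libraries but AD duodenum. IL7R, the receptor for interleukin 7 that regulatory T cells are known to carry at low level, was at 808, 138, 76.2, 95.3 and 258 CPM against 984, 225, 190, 114 and 349 CPM. It was below the comparison in all 5 libraries (-0.77 ± 0.20, edgeR adjusted p = 0.00811), and its call was lost without NB cecum, with DESeq2, with depth-matched comparison cells, after thinning and among barcodes with CD4 and without CD8. IL2RG, the shared gamma chain, was at 499 to 727 CPM against 356 to 453 CPM and did not pass (adjusted p = 0.299). The suppressive cytokine IL10 gave 8 UMIs in 7 cells, with 0 in AD jejunum and NB salivary gland, and did not pass (adjusted p = 0.452). TGFB1 was at 83.3 to 224 CPM against 92.8 to 134 CPM, and EBI3 gave no UMI where 3.65 would have been present at the comparison level.

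Of 13 checkpoint and costimulation genes tested, PDCD1 alone was higher, none was lower and the median was 0.34. PDCD1, the inhibitory receptor PD-1, was at 64.1, 221, 102, 121 and 157 CPM against 37.2, 54.0, 40.3, 74.4 and 18.6 CPM (1.36 ± 0.26, edgeR adjusted p = 0.000146). It was higher in each library and seen in 36 of 85 cells. Its call was lost after thinning, at 2000 to 6000 UMIs and among barcodes with CD4 and without CD8. It was also lost without barcodes holding 2 or more UMIs of an other-type marker. LAG3 did not pass (adjusted p = 0.0758) and reached 451 CPM in AD jejunum against 98.3 CPM, with 25.6 against 30.3 CPM in AD duodenum.

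The coreceptors separated the classes in the direction known for the CD4+ lineage. CD4 was at 250, 516, 237, 173 and 370 CPM in FOXP3 T cells and 245, 170, 70.8, 118 and 143 CPM in comparison barcodes (0.85 ± 0.21, edgeR adjusted p = 0.00421). The classes were nearly level in AD duodenum, and the call was lost without AD jejunum and with depth-matched comparison cells (0.82, adjusted p = 0.102). CD8A, the coreceptor of cytotoxic T cells, was at 135, 18.4, 0, 0 and 22.4 CPM against 211, 265, 47.5, 42.7 and 98.8 CPM (-2.16 ± 0.34, edgeR adjusted p = 1.44e-06). AD duodenum was the only library in which the FOXP3 value of CD8A lay above the floor of 3 counts. The values of the other libraries were therefore not resolved from each other. CD8B was lower by 1.46 on the log2 scale ± 0.35, but stood at 128 against 126 CPM in AD duodenum, and its call was lost without AD jejunum. The receptor chain CD247 was also lower (-0.69 ± 0.19, edgeR adjusted p = 0.0155), a call lost with RLE factors and without AD jejunum or NB cecum.

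By cell, CD4 without CD8A or CD8B was seen in 45.9%, 60.0%, 81.8%, 58.3% and 70.0% of FOXP3 T cells, against 44.2%, 28.3%, 17.9%, 31.1% and 32.2% of comparison barcodes. CD8 without CD4 was seen in 5 of 37 FOXP3 T cells of AD duodenum, 1 of 15 of AD jejunum, 1 of 10 of NB salivary gland and none in NB cecum or NB rectum. AD duodenum thus held 5 of the 7 FOXP3 T cells with CD8 alone. They were 13.5% of its FOXP3 T cells, against 6.67% in AD jejunum and 10.0% in NB salivary gland. The AD duodenum share of cells with neither coreceptor, 37.8%, was the highest among FOXP3 T cells. When both classes were limited to barcodes with CD4 and without CD8, 25 genes were higher (0.400% of 6253) and 49 lower (0.784%). TNFRSF4, IL2RA, IKZF2, TNFRSF18, BATF, SNX9 and CDKN2C kept their calls in that comparison, while CTLA4, PRDM1, ICOS and PDCD1 did not pass.

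**Figure D4:**
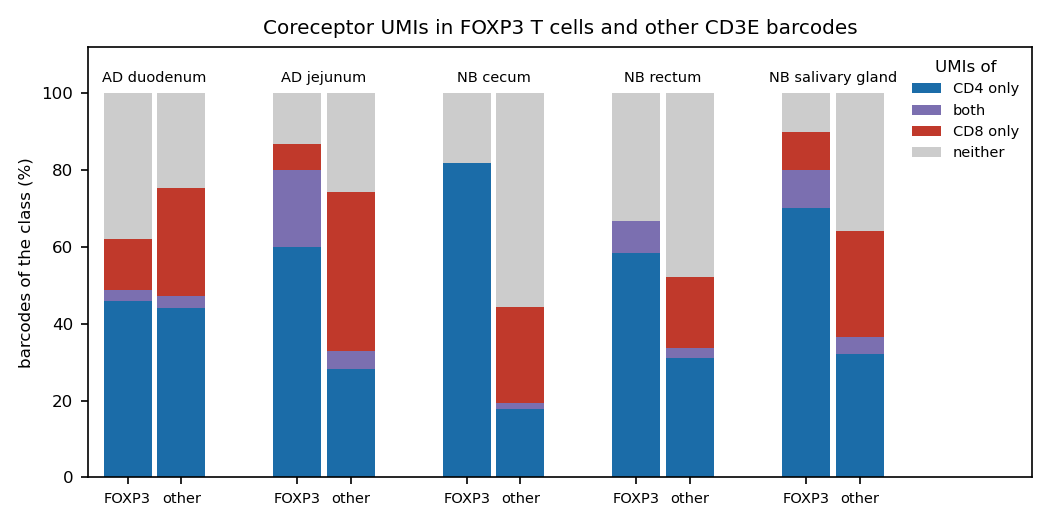
Percentage of barcodes with UMIs of CD4 only, of CD8A or CD8B only, of both or of neither (stacked bars, vertical axis) in FOXP3 T cells and other CD3E barcodes of each library. CD4 alone takes 45.9 to 81.8% of FOXP3 T cells and 17.9 to 44.2% of other CD3E barcodes.

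Of 16 gene IDs of the cytotoxic and effector list tested, none was higher, 11 were lower and 5 did not pass, with a median log2 fold change of -1.96. CCL5 (ENSBTAG00000053649), a chemokine of cytotoxic T cells, was at 840, 700, 8.47, 0 and 0 CPM against 2311, 3612, 238, 271 and 110 CPM (-2.71 ± 0.23, edgeR adjusted p = 6.7e-16). The adult libraries held nearly all of its UMIs in FOXP3 T cells, and 14 of the 85 cells had any. NKG7 (ENSBTAG00000009137), a protein of cytotoxic granules, was at 109, 138, 0, 0 and 11.2 CPM against 222, 597, 209, 208 and 64.4 CPM (-2.60 ± 0.31, edgeR adjusted p = 2.65e-10). DESeq2 did not call NKG7 (adjusted p = 0.058), and neither did the comparison within barcodes with CD4 and without CD8 (adjusted p = 0.0961).

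The granzymes are proteases of the same granules, of which GZMA, both gene IDs of GZMB and GZMM were lower, while GZMK, with 1 UMI, did not pass. GZMM rested on 2 UMIs in 2 cells, and its call was lost without AD jejunum or NB salivary gland. GZMA was lower by 1.27 on the log2 scale, although NB cecum had 67.7 against 53.0 CPM and NB salivary gland had none in either class, and its call was lost without AD jejunum. The symbol GZMB stands for a pair of gene IDs: ENSBTAG00000010057 was at 83.3, 276, 0, 8.66 and 0 CPM against 122, 1006, 80.9, 80.5 and 1.55 CPM, with 63.6% of its FOXP3 class UMIs in 1 cell, and ENSBTAG00000053015 gave 3 UMIs in 2 cells. Whether reads were split between these gene IDs was not tested, because sequences were not used. The pore protein PRF1 gave 8 UMIs in 6 cells, tumour necrosis factor (TNF) 9 in 7 cells and interferon gamma (IFNG) 10 in 3 cells, all with lower calls, of which IFNG and PRF1 lost theirs without AD jejunum and TNF without AD duodenum; IFNG also lost its call without NB cecum or NB rectum. GNLY and FASLG were lower too, although GNLY was at 77.9 against 46.2 CPM in NB rectum and, at 2000 UMIs, was seen in 12.2% of FOXP3 T cells against 10.8% of comparison barcodes. Both calls were lost without AD jejunum, and that of FASLG, with 5 UMIs in 4 cells, also without NB cecum or NB rectum. In the library with the highest such share, the 1% of comparison barcodes with the most UMIs carried 85.6% of the UMIs of GZMB ENSBTAG00000010057 and 33.5% of those of NKG7. IL17A and IL17F, inflammatory cytokines, gave no UMI in FOXP3 T cells and did not enter the test. At the comparison level 27.6 and 35.4 UMIs would have been present, 9.20-fold and 11.8-fold above a floor of 3 counts over the 5 libraries. At 2000 UMIs IL17A and IL17F were seen in a mean of 1.07% and 3.33% of comparison barcodes. Their comparison values were above 10 CPM in NB cecum and NB rectum alone. Few FOXP3 T cells with them would thus have been present at an equal share, and the folds are no minimum.

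**Figure D5:**
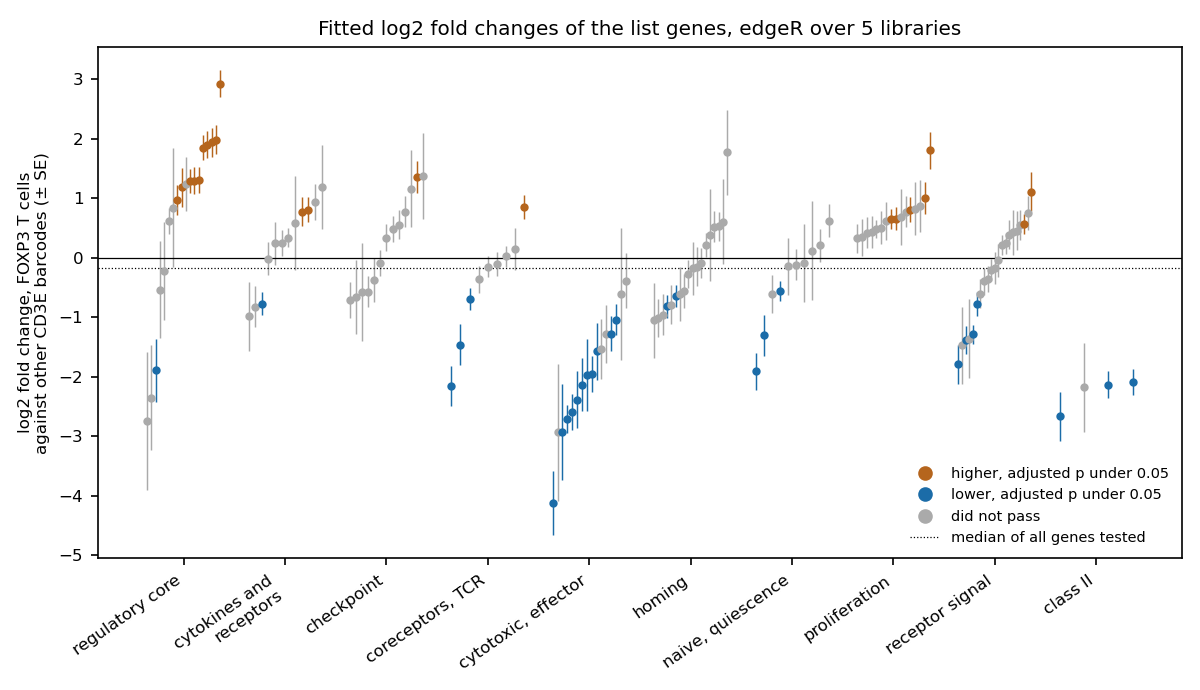
Fitted log2 fold changes (vertical axis, bars are SE) between FOXP3 T cells and other CD3E barcodes for the tested genes of 10 lists, ordered within each list; filled colours mark genes that passed the test. Core genes reach 2.93 (TNFRSF4), cytotoxic genes lie below the dotted median of all genes (-0.18), and list genes with 0 UMIs in FOXP3 T cells did not enter the test and are not drawn.

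Genes of a resting or naive T cell state were in part lower. Of 10 tested, 3 were lower, none was higher and the median was -0.13. TCF7, a factor of naive and memory T cells, was at 115, 9.21, 0, 0 and 146 CPM against 199, 51.5, 96.9, 67.4 and 377 CPM (-1.91 ± 0.31, edgeR adjusted p = 3.17e-06). SATB1 was lower by 1.30 ± 0.34 on the log2 scale, a call lost without NB salivary gland, and ID2 was lower by 0.56 ± 0.17 (adjusted p = 0.0421), a call lost with RLE factors and without AD jejunum, NB cecum or NB rectum. LEF1, KLF2, FOXO1 and FOXP1 did not pass.

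Genes of the proliferation list were higher for 5 of 16, with none lower and a median of 0.66. RRM2, a subunit of the enzyme that makes DNA precursors, was at 147, 64.4, 246, 260 and 44.9 CPM against 3.39, 51.1, 81.3, 111 and 12.1 CPM (1.81 ± 0.31, edgeR adjusted p = 1.53e-05). It was seen in 14 of 85 cells, and the ratio between the classes was largest in AD duodenum. Of its 93 UMIs in FOXP3 T cells, 1 NB rectum cell held 23, most of those in that library. TOP2A, STMN1, TUBA1B and PCNA were higher by 1.00, 0.81, 0.66 and 0.66, and all 4 lost their calls without AD duodenum. STMN1 and PCNA also lost theirs without AD jejunum, and PCNA without NB cecum. MKI67, a marker of cycling cells, was at 167, 101, 660, 485 and 22.4 CPM against 21.9, 186, 205, 277 and 62.6 CPM and did not pass (adjusted p = 0.0609). AD duodenum, NB cecum and NB rectum thus had values above the comparison for MKI67 and TOP2A, and AD jejunum and NB salivary gland below. With depth-matched comparison cells none of the 5 proliferation genes was called, with RRM2 at 1.40 (adjusted p = 0.0705), TOP2A at 0.91, STMN1 at 0.65, TUBA1B at 0.62 and PCNA at 0.47.

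Immediate response genes of the receptor signal list went in both directions, with 2 higher, 4 lower and 15 not passed of 21. JUN was at 1731, 396, 914, 1464 and 325 CPM against 2388, 1041, 2784, 1714 and 1273 CPM (-1.29 ± 0.16, edgeR adjusted p = 8.16e-10). It was below the comparison in all 5 libraries and seen in 67 of the 85 cells. FOSB was at 192, 0, 254, 242 and 11.2 CPM against 290, 42.8, 668, 364 and 142 CPM (-1.38 ± 0.24), and NR4A2 and JUNB were also lower, while FOS did not pass (adjusted p = 0.711). FOSB, NR4A2 and JUNB lost their calls with depth-matched comparison cells, and JUN kept its call. JUNB also lost its call without NB cecum. DUSP1, a phosphatase, was higher by 0.57 and TRAF1, an adaptor of the tumour necrosis factor receptors, by 1.11 ± 0.32 (edgeR adjusted p = 0.0248), both with calls lost without AD jejunum or NB salivary gland, and DUSP1 also without NB cecum.

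Homing receptors showed little. Of 18 tested, CD69 and CXCR4 were lower, none was higher and the median was -0.22. CD69, a retention and early activation marker, was at 256, 82.9, 305, 303 and 202 CPM against 331, 202, 384, 389 and 396 CPM (-0.81 ± 0.19, edgeR adjusted p = 0.00304), a call lost with depth-matched comparison cells (-0.45, adjusted p = 0.316). CXCR4 varied over libraries far more than between classes, with 27.6 to 1458 CPM in FOXP3 T cells and 30.5 to 2045 CPM in comparison barcodes, and its call was lost with RLE factors and without NB rectum or NB salivary gland. The gut-homing receptor CCR9 was at 430, 9.21, 0, 26.0 and 0 CPM in FOXP3 T cells against 311, 102, 30.8, 25.2 and 33.5 CPM, so that AD duodenum held most of it in both classes. CXCR6 was at 119 to 377 CPM in FOXP3 T cells, with 224 against 25.7 CPM in NB salivary gland, and did not pass (adjusted p = 0.267). CCR7, which guides T cells to lymph nodes, was at 56.1 against 486 CPM in NB salivary gland and did not pass over the 5 libraries (adjusted p = 0.101).

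The genes of largest change past the threshold with 1 sign in every library added a set outside the lists. SNX9, a sorting nexin of endocytosis, was at 115, 147, 84.7, 60.6 and 101 CPM against 20.1, 22.1, 22.4, 14.7 and 11.4 CPM (2.27 ± 0.31, edgeR adjusted p = 3.78e-08). No FOXP3 value overlapped any comparison value, and it was the single named gene called under all 19 alternative settings. CDKN2C, an inhibitor of the cell cycle kinases CDK4 and CDK6, was at 64.1, 64.4, 110, 130 and 78.5 CPM against 8.78, 21.0, 40.6, 31.5 and 13.7 CPM (1.84 ± 0.32, edgeR adjusted p = 1.38e-05). It too was above every comparison value in each library. TUBB6 (2.14), ATXN7L1 (2.00), GPR155 (1.89), TP53I11 (2.69) and the gene ENSBTAG00000050177 (2.29) completed the group. TP53I11 rested on 7 UMIs in 7 cells and lost its call when any of 4 libraries was left out (all but NB cecum), as did GPR155 with 13 UMIs (all but NB rectum).

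On the lower side the rule picked genes with no UMI in any FOXP3 T cell, for which the fitted fold change is no bound. Of the 304 lower genes, 16 were of this kind. The comparison level was set against a floor of 3 counts over the 5 libraries. It stood 6.89-fold above the floor for TMIGD2, 5.23-fold for XCL1, a chemokine of cytotoxic cells, 4.09-fold for LMO2 and 4.05-fold for CCDC88A. These genes were picked for their large negative change, so the folds describe the choice and are no minimum. For ENSBTAG00000052514 the level stood 7.64-fold above the floor and for PTI 5.94-fold. In at least 1 library the top 1% of comparison barcodes held all UMIs of each of these last genes. Over the 304 lower genes the median of that highest share was 32.9%, over the 123 higher genes 29.6% and over all genes tested 20.6%.

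Of 4 class II and antigen presentation genes tested, 3 were lower and CD86 did not pass, with a median log2 fold change of -2.16. Among the markers of other cell types, 3 of 3 plasma cell, 2 of 3 epithelial, 1 of 4 macrophage and 1 of 2 B cell genes tested were lower, none of 4 fibroblast genes passed, and the mast cell gene KIT was higher. CD74, the invariant chain of class II molecules, was at 1577, 2449, 102, 86.6 and 146 CPM in FOXP3 T cells and 1684, 7102, 2353, 643 and 477 CPM in comparison barcodes (-2.08 ± 0.22, edgeR adjusted p = 4.19e-12), and BOLA-DRA and BOLA-DMA were lower by 2.14 and 2.67. In FOXP3 T cells, 1 AD duodenum cell held 36.4% of all CD74 UMIs, and this cell also had 15 UMIs of C1QA. The plasma cell genes JCHAIN, MZB1 and DERL3 were lower, JCHAIN at 603, 368, 16.9, 0 and 11.2 CPM against 12614, 5620, 33.0, 116 and 31.3 CPM. The shares of cells with a UMI after thinning to 2000 UMIs lay closer together, with JCHAIN in 28.7% of FOXP3 T cells against 28.1% of comparison barcodes (higher in 3 of 5 libraries), BOLA-DRA in 20.3% against 22.0% (higher in 2) and CD74 in 24.3% against 30.9% (higher in 2). The plasma cell list summed to 0 to 615 CPM in FOXP3 T cells and 42.2 to 12833 CPM in comparison barcodes, the macrophage list to 0 to 1317 and 93.2 to 2300 CPM, and the epithelial list to 0 to 33.9 and 17.9 to 181 CPM. The macrophage list was higher in FOXP3 T cells of NB salivary gland (460 against 93.2 CPM), and the fibroblast list in NB rectum (8409 against 1172 CPM), where nearly all came from 1 cell. At 2000 UMIs C1QA was seen in 9.33% of FOXP3 T cells against 7.47% of comparison barcodes (higher in 2 of 5 libraries). C1QB was seen in 10.7% against 5.04% (higher in 3) and CSF1R in 6.30% against 3.08% (higher in 3). CD68 was seen in 4.67% against 4.29% (higher in 2) and CD163 in 0% against 0.436%. How far such RNA from other cells enters the lower calls was not tested. Without barcodes that held 10 or more UMIs of an other-type marker, 100 genes were higher and 340 lower, CD74 was at -2.24 and BOLA-DRA at -2.56, both still called, and C1QA, JCHAIN, DERL3, EPCAM, STAT5A, PCNA, TRAF1 and TP53I11 lost their calls, of which the first 4 are themselves markers that chose the barcodes to remove. Without barcodes holding 2 or more such UMIs, CD74 was at -1.40 (adjusted p = 0.0642) and BOLA-DRA at -0.46 (adjusted p = 0.713), and neither was called. KIT, listed as a mast cell marker, was at 89.8, 166, 33.9, 43.3 and 168 CPM against 19.2, 14.9, 99.3, 28.0 and 31.6 CPM (1.44 ± 0.33, edgeR adjusted p = 0.0022). The defining mast cell genes CPA3 and FCER1A were at 0 in the FOXP3 T cells of all 5 libraries, where 1.49 and 6.40 UMIs would have been present at the comparison level. At 2000 UMIs they were seen in a mean of 0.244% and 0.694% of comparison barcodes, so few cells with them would have been present. The KIT call was lost without AD jejunum.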

How the data were processed

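Droplet-based 3' single-cell RNA sequencing was analysed for 15 cattle libraries. The deposited UMI counts per gene and barcode were made by the authors with Cell Ranger 3.1.0 on the ARS-UCD1.2 assembly; the annotation release was not given in the sources used here. Total counts were 17707625 to 129458578 UMIs per library, and 17707625 to 83536439 in the 5 described. Counts of both classes were summed per library and tested with edgeR 4.0.16 (quasi-likelihood, TMM, filterByExpr, library as a term, Benjamini-Hochberg); FOXP3 and CD3E were left out. On simulated counts for 8702 genes, 100 of 100 genes changed 4-fold, 40 of 100 changed 2-fold and 8 of 8502 unchanged genes were called. The changed genes were drawn from the more highly expressed ones, and every sum had the same dispersion whatever its number of cells. Genes of low expression and sums carried by single cells were therefore not covered. Alternatives used RLE factors, DESeq2 1.42.0, no low-count filter, Scrublet (scanpy 1.11.5) at 0.8% per 1000 barcodes, mitochondrial shares under 40% (13 genes), 2000 to 6000 UMIs, thinning, barcodes with CD4 and without CD8, no library term, and subsets of libraries; depth-matched cells and removal of barcodes with 2 or 10 UMIs of other-type markers were added after seeing the data. No doublets were removed in the reported values.

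Members, gene lists and tests were chosen with earlier results of these data known. Named genes were FOXP3, CD3E, list and marker genes, and the 12 of largest change in each direction with 1 sign in every library. TRAC, TRBC1, TRDC, GZMH, H2AZ1, BOLA-DRB3 and BOLA-DQA1 were not found by symbol. A ratio between stages within a tissue was not computed, because no tissue had 10 FOXP3 T cells at both stages. Unnamed gene IDs could not be matched to symbols. Sequences were not used here, and the values of 1 gene of the regulatory core list are not reported here.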

Additional observations from a re-analysis of the deposited data

Results flagged for a closer look

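The contrast between FOXP3 T cells and other CD3E barcodes differed between AD and NB libraries for 7 named genes, by an interaction term in edgeR (23 of 8953 genes at an adjusted p under 0.05, 404 at an unadjusted p under 0.05). The log2 difference, AD minus NB, was 1.41 for TNFRSF18 (adjusted p = 0.0482), 2.33 for TNFRSF9 (0.000577), 4.11 for NKG7 (0.00366), 4.17 for CCL5 (0.000156), 2.22 for BOLA-DRA (2.52e-07), 2.30 for CD74 (1.85e-09) and 2.14 for KIT (0.0293). By library, the ratio of FOXP3 T cells to other CD3E barcodes for TNFRSF18 was 5.31 in AD duodenum and 11.5 in AD jejunum, against 1.46 in NB cecum, 1.69 in NB rectum and 12.8 in NB salivary gland. For TNFRSF9 and KIT too, NB salivary gland (6.56 and 5.32) lay above AD duodenum (1.78 and 4.67), and NB cecum and NB rectum lay below both AD libraries. The TNFRSF18 value of AD duodenum rested largely on 1 cell, which held 24 UMIs, with 3 in the next. The highest and next cell held 18 and 17 in AD jejunum and 18 and 11 in NB cecum. They held 28 and 18 in NB rectum and 18 and 9 in NB salivary gland. For the other 4 genes the fitted deficit was smaller in AD. NKG7 and CCL5 each had 1 UMI in all NB FOXP3 T cells, so their fitted differences are no bounds. Without barcodes holding 10 or more UMIs of an other-type marker, the difference was 0.70 for BOLA-DRA and 1.17 for CD74 with adjusted p of 1 and 0.438, while TNFRSF18 was at 1.61, TNFRSF9 at 2.42 and KIT at 3.004, all still past the threshold. AD values come from 1 cow and 2 tissues whose NB libraries held no FOXP3 T cell, so stage, animal, tissue and dissociation cannot be told apart.

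FOXP3 T cells in libraries under the limit of 10 numbered 5 in AD cecum, 7 in AD colon and 5 in NB colon, flagged because their counts lie above the limit of 3 that a count of 0 allows. In NB cecum 4 barcodes with FOXP3 lay outside the limits on genes and UMIs, against 11 within them.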

How the results depend on the processing

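The mean FOXP3 share covers the described libraries only. It was within 1 SD of its value in AD and NB with mitochondrial filters and without doublets. The same held with any CD3 gene and without the upper limit on genes. The mean moved with the threshold, to 0.00676% in AD and 0.0990% in NB at 2 or more FOXP3 UMIs. With depth it moved to 0.203% and 0.323% at 2000 UMIs, and to 0.135% and 0.138% at 1000 UMIs. With each library left out in turn it was 0.349% to 0.500% in AD and 0.715% to 1.12% in NB, and the counts of genes were 70 to 115 higher and 185 to 308 lower, the lowest ones without AD jejunum and without NB cecum.

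Against 123 higher and 304 lower genes, counts moved by over 1.5 times to 62 lower with DESeq2, 463 lower with no filter, 9 and 74 at 2000 to 6000 UMIs, 20 and 180 after thinning, 25 and 49 for CD4 without CD8, 53 and 55 with depth-matched cells, 13 and 143 without barcodes holding 2 or more UMIs of an other-type marker, 64 and 85 in AD alone, and 1 and 0 without the library term. The share of calls that were higher was 28.8% in the reported comparison, 44.0% with RLE factors, 60.0% with DESeq2, 18.6% with no filter, 10.0% after thinning and 49.1% with depth-matched cells. Fewer cells or genes entered several of these; other causes were not tested.

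Of 1297 comparisons for 76 called named genes, 884 kept call and direction, 399 lost the call and 14 reversed without passing the threshold. At 2000 to 6000 UMIs these were TNFRSF9 (-1.35), IL2RB (-0.070), PCNA (-0.37), TUBA1B (-0.33), DUSP1 (-0.087) and TRAF1 (-0.27). For CD4 without CD8 they were CD4 (-0.14), GZMA (0.73) and GNLY (0.48), and without barcodes holding 2 or more UMIs of an other-type marker TNFRSF9 (-0.12), CD4 (-0.048), PCNA (-0.11), TUBA1B (-0.13) and KIT (-0.0059). CD4 in the former setting and KIT in the latter chose the barcodes, so their own values there are conditioned on that choice. With every single library left out, 37 of the 76 kept their call.

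Fits with 2 or more FOXP3 UMIs (6 cells) and with libraries of 30 or more FOXP3 T cells (AD duodenum alone) were not run, nor the ratio between stages. The classes were paired within a library by the library term. Between libraries no paired analysis was possible because the labels give each tissue and stage 1 library. Depth limits the rest: 10 to 37 cells per library gave a floor of 19.2 to 33.7 CPM.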
